A study of Rattus norvegicus with 7 samples.

Results

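The 451 nuclei described here are endothelial nuclei of rat kidney that carried RNA of Plvap and none of Ehd3. Plvap encodes the protein that forms the diaphragms of capillary fenestrae, and Ehd3 encodes a membrane-trafficking protein that in mouse kidney marks glomerular endothelium. The members were chosen by their measured counts of these and other endothelial genes. A nucleus was included if its barcode held at least 200 genes, at most 10000 unique molecular identifiers (UMIs, each standing for 1 captured RNA molecule) and at most 5% mitochondrial UMIs. It also had to hold 4 or more UMIs summed over Flt1, Kdr, Emcn, Ptprb and Egfl7, at least 2 of these genes, 1 or more UMIs of Plvap and 0 of Ehd3. Pecam1 was named in the same sum, but no gene of that symbol was used here. These nuclei made up 1.47% of the 30746 barcodes that passed the quality limits and 13.6% of the 3322 nuclei in the endothelial gate.

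All animals were rats of the HSRA line, in which a kidney can be missing from birth, and were 4 weeks old. There were 3 libraries from animals with 1 kidney and 4 from animals with 2 kidneys, each from a central piece of archived kidney that held both cortex and medulla. The labels also count 3 HSRA-S and 4 HSRA-C animals, which matches the numbers of 1-kidney and 2-kidney libraries. Nuclei were captured with the 10x Genomics droplet chemistry that tags RNA at its 3' end, and the labels name no drug treatment or engineered allele.

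Peritubular capillaries surround the tubules and take up the water and solutes that the tubules return to the blood. Their endothelium is thin and perforated by fenestrae closed by diaphragms of PLVAP, whereas mature glomerular capillaries have fenestrae without diaphragms. Growth factors of the VEGF family act on these cells through Flt1 and Kdr, and angiopoietins act through Tek, whose signalling is restrained by the phosphatase Ptprb.

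The deposited matrices held 37048 barcodes, averaging 5293 per library, the number the labels give. The nuclei of the rule numbered 8, 51 and 43 in 1-kidney replicates 1 to 3, against 65, 36, 120 and 128 in 2-kidney replicates 1 to 4. Their summed UMIs were lowest at 19028 in 1-kidney replicate 1, where 1 UMI is worth 0.526 per 10000, and highest at 333580 in 2-kidney replicate 3. Levels below are UMIs of a gene per 10000 UMIs of all genes, summed over these nuclei within a library. Between any pair of libraries at most 9 retained barcodes were the same, and no barcode of these nuclei was shared. The titles put all 1-kidney libraries and 2-kidney replicates 1 and 2 in a set coded P1117 and 2-kidney replicates 3 and 4 in a set coded P1117B, and what the codes stand for is not given. RNA of tubule genes was present in most of the nuclei: 403 of the 451 (89.4%) held 3 or more UMIs of the proximal tubule genes Slc34a1, Lrp2 and Cubn. Of the 451, 213 held 10 or more. That is the count by which proximal tubule nuclei were chosen below, though those also had to lack the endothelial gate genes. Slc34a1, the sodium phosphate carrier of the proximal tubule, stood at 243, 262 and 224 UMIs per 10000 in these nuclei of the 1-kidney libraries, against 203, 218, 116 and 87.7 in the 2-kidney libraries. That mean of 194 ± 65.8 (SD, n = 7) lies beside 189 ± 64.1 over all retained barcodes and 217 ± 62.3 in proximal tubule nuclei, so tubule genes named below cannot be assigned to endothelium.

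The genes used to choose the nuclei are given as a description. Plvap (ENSRNOG00000017676) stood at 5.26, 3.77 and 4.26 UMIs per 10000 in the 1-kidney libraries, against 5.0, 4.33, 4.62 and 5.07 in the 2-kidney libraries. These ranges overlap. Plvap rested on exactly 1 UMI in 353 nuclei and on 2 or more in 98, with a highest count of 4. The VEGF receptor Flt1 stood at 13.1, 11.4 and 8.44 in the 1-kidney libraries, against 5.60, 7.65, 11.2 and 15.6 in the 2-kidney libraries, and its other receptor Kdr stood at 3.15, 2.89 and 3.77, against 3.57, 4.43, 4.38 and 3.98. Flt1 was both lowest and highest in 2-kidney libraries. The endothelial sialomucin Emcn ranged over 8.76 to 21.0 and the phosphatase Ptprb over 10.2 to 18.4 across the 7 libraries, with the highest value of each in 1-kidney replicate 1. Egfl7, a protein secreted by endothelium, stood at 1.58, 2.66 and 2.29 in the 1-kidney libraries, against 4.28, 2.92, 3.03 and 2.85 in the 2-kidney libraries, without overlap.

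Many nuclei lay close to the thresholds. The sum over the endothelial genes was exactly 4 UMIs in 42 nuclei, 5 or 6 in 106 and 7 or more in 303, with a median of 9 and a maximum of 100. Just outside, 40 nuclei had a sum of 3 and otherwise met the rule, and 72 failed it through 1 UMI of Ehd3. A further 2348 nuclei of the endothelial gate held neither Plvap nor Ehd3. At a median of 1848 UMIs per nucleus, a count of 0 does not show that Plvap or Ehd3 RNA was absent. Plvap was seen in 17.0% of endothelial gate nuclei, against 1.16% of barcodes outside that gate and 0.803% of the 11827 proximal tubule nuclei, whose median depth was 2608 UMIs.

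Endothelial genes that the rule did not use were also high in these nuclei. Set against all other retained barcodes as a ratio of library means, the endothelial transcription factor Erg was 9.96 times higher, the VE-cadherin gene Cdh5 8.48 times, the angiopoietin receptor Tek 10.4 times, the scavenger receptor Stab1 11.1 times and the ectonucleotidase Entpd1 9.02 times. Col13a1, a transmembrane collagen, was 20.4 times higher and Tll1, a tolloid-like metalloprotease, 16.1 times. The adrenomedullin receptor partner Ramp3 stood 9.45 times higher and Rgcc, a cell cycle regulator active in endothelium, 11.8 times. For each of these genes the nuclei of the rule were above the rest in 7 of 7 libraries. The same nuclei were chosen for endothelial RNA, so these ratios carry no test.

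Several markers of mural, immune and fibroblast cells were scarce, while tubule RNA was not: Slc34a1 had 20559 UMIs in these nuclei. In these nuclei the pericyte gene Rgs5 had 0 UMIs, smooth muscle Acta2 had 2, the macrophage receptor Csf1r had 1, the leukocyte gene Ptprc had 8 and the fibroblast genes Col1a1 and Dcn had 5 and 13. Not every marker was this scarce. Of the wider lists, 2 of 11 mural, 1 of 12 immune and 0 of 10 fibroblast genes had counts enough to be tested against Ehd3-positive nuclei below. The sum over 9 fibroblast genes ranged over 0 to 0.655 per 10000 in the 1-kidney libraries and 0.439 to 0.789 in the 2-kidney libraries. Over 10 podocyte genes the sum was 5.26, 15.7 and 6.06 per 10000 in the 1-kidney libraries, against 8.89, 4.83, 6.33 and 6.65 in the 2-kidney libraries, with 1-kidney replicate 2 highest. Among the glomerular endothelial markers, Sost had 0 UMIs, Gata5 had 1, against 14 in the Ehd3-positive nuclei, and Tbx3 had 12, against 34. Others, such as Hecw2, were present. Of 8 genes of the wider glomerular endothelial list tested against Ehd3-positive nuclei below, 1 passed as lower and 3 were higher without passing. Endothelial genes outside the rule were thus high in nuclei chosen for endothelial RNA, which also held much tubule RNA. Their identity was not tested apart from the rule, and a peritubular position was not measured. These nuclei are called Plvap-positive nuclei below.

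The promoter windows of Plvap and of the pair of genes with the next highest ratios over the rest, Col13a1 and Tll1, are shown because both genes were also higher in Plvap-positive nuclei than in both endothelial classes they are compared with below. Sequences are from RefSeq on build GRCr8, 250 bases before to 50 after the gene start on the coding strand. The Plvap window lies at chr16:18231230-18231529 on the minus strand, that of Tll1 at chr16:30275242-30275541 on the plus strand and that of Col13a1 at chr20:30466751-30467050 on the minus strand. Capitals mark matches, on either strand, to a motif of ETS factors (CCGGAA, or TTCCGG when read on the other strand), to one of SOX factors (AACAAT, or ATTGTT when read on the other strand) and to one of KLF factors (CCACCC, or GGGTGG when read on the other strand). No motif overlaps another in its letters.
Plvap: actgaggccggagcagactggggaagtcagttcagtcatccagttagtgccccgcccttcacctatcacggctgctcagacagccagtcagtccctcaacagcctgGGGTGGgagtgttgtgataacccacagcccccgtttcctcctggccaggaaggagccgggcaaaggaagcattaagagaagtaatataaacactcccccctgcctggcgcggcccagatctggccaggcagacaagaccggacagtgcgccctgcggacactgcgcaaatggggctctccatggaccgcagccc
Tll1: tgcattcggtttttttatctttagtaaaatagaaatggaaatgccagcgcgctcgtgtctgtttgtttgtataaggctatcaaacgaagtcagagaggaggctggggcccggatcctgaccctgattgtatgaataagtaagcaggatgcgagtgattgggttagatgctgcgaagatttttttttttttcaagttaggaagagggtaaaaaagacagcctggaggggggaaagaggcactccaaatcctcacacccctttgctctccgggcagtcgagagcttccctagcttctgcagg
Col13a1: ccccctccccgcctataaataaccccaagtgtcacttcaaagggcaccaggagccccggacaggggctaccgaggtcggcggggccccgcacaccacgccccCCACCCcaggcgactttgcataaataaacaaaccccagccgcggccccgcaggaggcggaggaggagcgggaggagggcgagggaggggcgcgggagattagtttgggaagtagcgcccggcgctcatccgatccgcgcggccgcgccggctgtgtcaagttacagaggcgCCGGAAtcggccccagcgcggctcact
The Plvap window held 1 KLF match, the Col13a1 window 1 ETS and 1 KLF match, and in the Tll1 window these letters did not occur. Among 33469 rat promoter windows of this length, 15% held the ETS letters, 11.7% the SOX letters and 29.4% the KLF letters. The matches are descriptions of sequence only.

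Whether kidney number went with the share of these nuclei was asked over libraries. Plvap-positive nuclei made up 0.356, 1.17 and 1.02% of retained barcodes in 1-kidney replicates 1 to 3, against 1.69, 0.822, 2.04 and 2.21% in 2-kidney replicates 1 to 4. The groups overlapped, since 2-kidney replicate 2 lay below 1-kidney replicates 2 and 3. The exact 95% binomial interval of the lowest share, in 1-kidney replicate 1, was 0.154 to 0.699%, and that of the highest, in 2-kidney replicate 4, was 1.85 to 2.63%. The 1-kidney mean was 0.847 ± 0.432% and the 2-kidney mean 1.69 ± 0.618% (SD, n = 3 and 4), a difference of -0.843 percentage points that did not pass an exact two-sided permutation test (p = 0.171). The smallest p that 3 libraries against 4 can give is 0.0286.

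Within the endothelial gate the order of the libraries was the same. Plvap-positive nuclei were 4.28, 11.2 and 9.75% of gate nuclei in the 1-kidney libraries, against 14.2, 9.28, 16.9 and 18.8% in the 2-kidney libraries. Again 2-kidney replicate 2 was the library that overlapped the 1-kidney group. The means of 8.40 ± 3.64% and 14.8 ± 4.14% differed by -6.38 percentage points (exact two-sided permutation p = 0.171). The gate itself took 9.73 ± 1.23% of retained barcodes in 1-kidney libraries, against 11.2 ± 1.53% in 2-kidney libraries (exact permutation p = 0.286). The share of Ehd3-positive, Plvap-negative nuclei in the gate was 9.83 ± 4.20% against 12.5 ± 4.14% (exact permutation p = 0.457), and within set P1117 this difference turned to 0.394 percentage points (p = 1.0, exact permutation test). A lower share of nuclei with a Plvap UMI can come from fewer such cells or from less Plvap RNA per nucleus, and these cannot be told apart here.

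Depth and the set code were checked for the share. With every barcode thinned to 1000 UMIs and shallower barcodes left out, the gate share was 8.80 ± 1.87% in 1-kidney libraries, against 13.4 ± 3.75% in 2-kidney libraries (exact permutation p = 0.114). Within set P1117, where 3 libraries against 2 cannot go below p = 0.1, the difference was -3.32 percentage points of the gate and -0.409 points of retained barcodes, each with an exact permutation p of 0.6. Set P1117B holds 2-kidney libraries only, and its share of the difference cannot be told apart from kidney number. The gate share was lower in 1-kidney libraries under each of these settings.

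**Figure D1:**
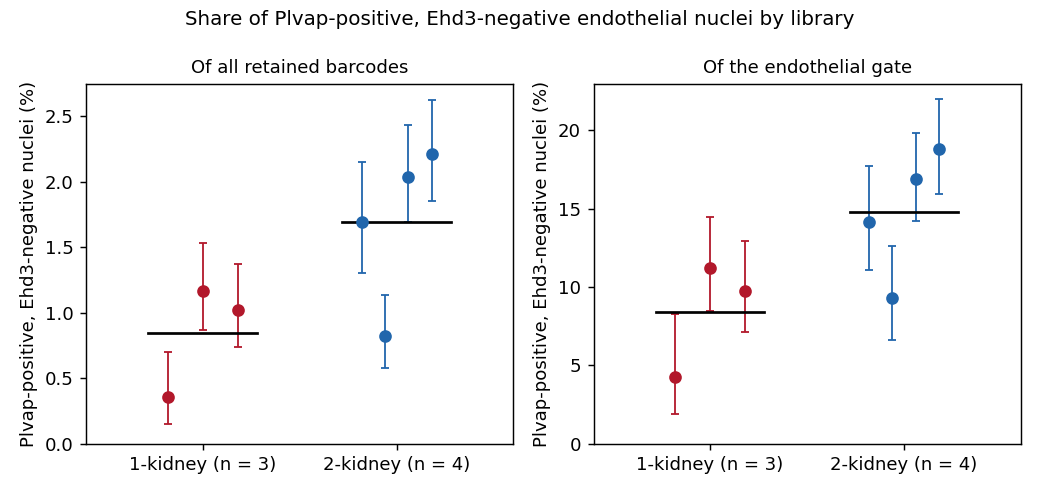
Plvap-positive, Ehd3-negative nuclei as percent of all retained barcodes (left) and of the endothelial gate (right), 1 point per library with its exact 95% binomial interval; lines are group means. The 1-kidney libraries lie at 0.356 to 1.17% and 4.28 to 11.2%, the 2-kidney libraries at 0.822 to 2.21% and 9.28 to 18.8%, with overlap in both panels.

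Within the 451 nuclei, genes of vessel types and states were compared as shares of nuclei with a UMI, with proximal tubule nuclei beside them. The proximal tubule nuclei were chosen to hold 0 UMIs of the 5 endothelial gate genes, so they can understate free endothelial RNA. For genes that tubule cells make, their share includes the tubule's own RNA. The arterial transcription factor Sox17 was seen in 15 Plvap-positive nuclei (3.33%), against 12.5% of the 409 Ehd3-positive, Plvap-negative nuclei and 0.321% of proximal tubule nuclei. At an equal 1000 UMIs per nucleus, with 371 and 344 nuclei left, Sox17 was in 1.62% (exact 95% interval 0.596 to 3.49) of Plvap-positive nuclei, against 6.98% (4.52 to 10.2) of Ehd3-positive nuclei. The intervals cover counting error over pooled nuclei, not the spread between animals. Slc14a1, the urea transporter of descending vasa recta, was in 3 Plvap-positive nuclei (0.665%), and proximal tubule nuclei had it at 0.364%. Aqp1, a water channel of proximal tubule and vasa recta, was in 11.1% of Plvap-positive nuclei, below its 17.5% in proximal tubule nuclei. Its RNA cannot be assigned to endothelium here.

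Among venous and lymphatic genes, Ephb4 and Lyve1 were seen in more Plvap-positive than proximal tubule nuclei. The others lay near or below the share of proximal tubule nuclei or were rare. The ephrin receptor Ephb4 of venous endothelium was in 101 Plvap-positive nuclei (22.4%), against 20.5% of Ehd3-positive and 9.33% of proximal tubule nuclei, and thinning to 1000 UMIs gave 9.70, 10.8 and 3.54%. Nr2f2, a venous transcription factor also made by tubules and stroma, was in 37.5%, close to the 36.8% of proximal tubule nuclei, so it cannot be assigned to endothelium. Vwf (0.665%) and Selp (0.222%) lay below their 1.51% and 0.279% in proximal tubule nuclei. Lyve1, a hyaluronan receptor of lymphatic and some other endothelium, was in 71 Plvap-positive nuclei (15.7%), against 18.8% of Ehd3-positive and 0.753% of proximal tubule nuclei. Prox1, which defines lymphatic endothelium but is also made by tubule cells, was in 5.76%, against 5.39% of proximal tubule nuclei, and Mmrn1 and Reln were in 0.665% and 1.33% of Plvap-positive nuclei. Esm1, a marker of sprouting tip cells, was in 19 nuclei (4.21%), against 6.36% of Ehd3-positive and 0.245% of proximal tubule nuclei. Over the lists together, 223 nuclei held a venous gene without an arterial one, 13 an arterial gene without a venous one, 7 held both and 208 neither. Nr2f2 was in 169 of the 230 nuclei with a venous gene. The share with any venous gene, 51.0%, lies beside 48.2% of Ehd3-positive and 42.8% of proximal tubule nuclei. At 1000 UMIs per nucleus these shares were 26.4, 29.9 and 20.4%. The venous counts are therefore not read as a vessel type, and the part of free RNA in them was not tested.

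The proliferation gene Mki67 was in 37 Plvap-positive nuclei (8.20%), against 6.36% of Ehd3-positive and 6.77% of proximal tubule nuclei. Across libraries at equal depth the 1-kidney mean was 11.5 ± 8.53% of Plvap-positive nuclei and the 2-kidney mean 3.26 ± 2.40% (exact permutation p = 0.229). After thinning, 1-kidney replicate 1 held only 5 of these nuclei, so a single nucleus weighs heavily in the 1-kidney mean. Of 21 state genes tested between the groups, none passed: the smallest exact permutation p was 0.0571, for the angiopoietin Angpt2, and every adjusted p was 1.0. With 3 libraries against 4, a single one of these genes cannot reach an adjusted p below 0.6, so this count says little about the states.

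**Figure D2:**
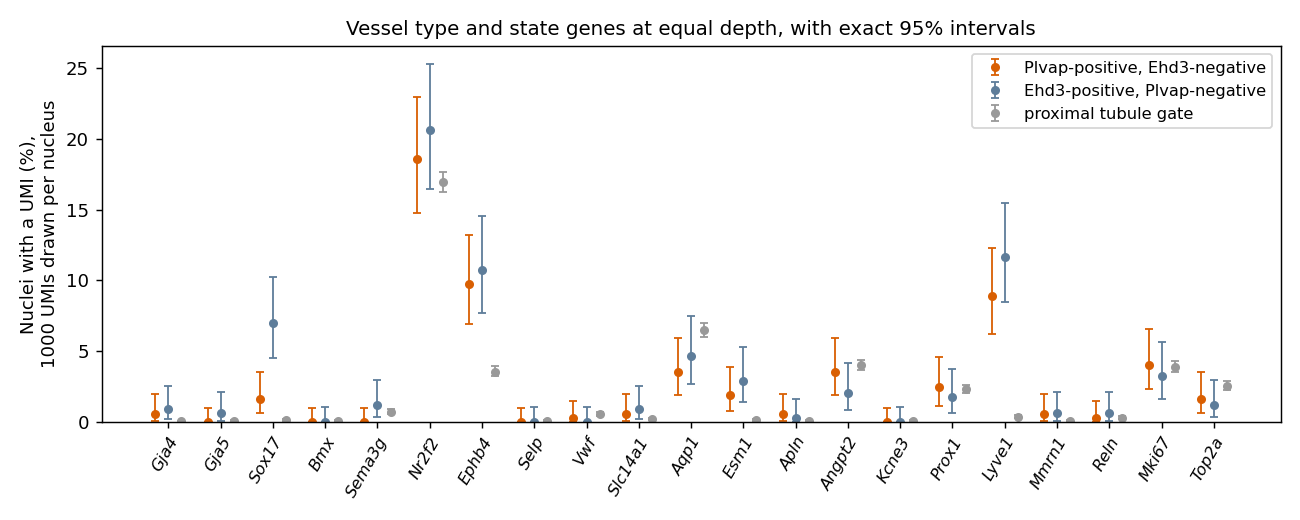
Percent of nuclei with a UMI of each vessel type or state gene after thinning to 1000 UMIs, for Plvap-positive, Ehd3-negative nuclei, Ehd3-positive, Plvap-negative nuclei and proximal tubule nuclei, with exact 95% binomial intervals. Sox17 is at 1.62% in Plvap-positive and 6.98% in Ehd3-positive nuclei, while Lyve1 is at 8.89% and 11.6%, both far above the 0.345% of proximal tubule nuclei.

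The next comparison asked how Plvap-positive nuclei differ from Ehd3-positive, Plvap-negative endothelial nuclei of the same libraries. Of 5115 genes tested with edgeR's quasi-likelihood test, 28 passed an adjusted p of 0.05 (0.547%), with 11 higher (0.215%) and 17 lower (0.332%) in Plvap-positive nuclei, and 288 had an unadjusted p under 0.05 (5.63%). The cytoskeletal gene Pgm5 and the protease gene Tll1 were among those higher, and the Wnt modulator Dkk2 and the VEGF and semaphorin coreceptor Nrp1 were the lower genes with the smallest p. The Ehd3-positive nuclei rested on exactly 1 Ehd3 UMI in 273 of 409. The 15 proximal tubule genes summed to 279 ± 72.6 per 10000 in Plvap-positive and 285 ± 88.8 in Ehd3-positive nuclei, and none of the 15 passed the test. What part tubule RNA has in the calls was not tested.

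Tll1 (ENSRNOG00000033528), the protease whose promoter is shown above, stood in the 7 libraries at 5.78, 7.38, 3.44, 3.13, 1.91, 6.80 and 12 UMIs per 10000 in Plvap-positive nuclei, against 1.92, 3.16, 2.74, 1.67, 1.25, 3.88 and 9.10 in Ehd3-positive nuclei (1-kidney replicates 1 to 3, then 2-kidney replicates 1 to 4). It was higher in Plvap-positive nuclei in 7 of 7 libraries, though the ranges over libraries overlap. Its log2 fold change was 0.72 ± 0.14 (SE; edgeR adjusted p = 0.00195). Col13a1 (ENSRNOG00000000552) averaged 1.20 ± 1.02 UMIs per 10000 against 0.392 ± 0.314, on 141 and 49 UMIs, and was higher in 6 of 7 libraries (log2 fold change 1.38 ± 0.28, edgeR adjusted p = 0.00277).

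Other higher genes included the extracellular matrix protein Hmcn1 at 1.99 ± 0.736 against 0.953 ± 0.374 UMIs per 10000 (log2 fold change 1.03, edgeR adjusted p = 0.00201, higher in 6 of 7 libraries). Ror2, a receptor for the Wnt5a ligand, stood at 3.56 ± 1.93 against 1.90 ± 1.28 (0.83, adjusted p = 0.00553, 7 of 7). Ehd4, a relative of Ehd3 in membrane trafficking, stood at 4.08 ± 1.38 against 2.49 ± 1.05 (0.59, adjusted p = 0.0329, 7 of 7). Pgm5, a cytoskeletal relative of phosphoglucomutase, was higher by 1.43 on the log2 scale and Thsd7a, a membrane-associated thrombospondin-domain protein, by 1.02. The Rac regulator Chn2 was higher by 0.63 and the vesicle release factor Cadps2 by 0.72. Elastin (Eln) also passed, at 1.3 and an adjusted p of 0.0152, but was higher in 4 of 7 libraries and drew 61 of its 164 UMIs from 2-kidney replicate 1.

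Dkk2 (ENSRNOG00000011360) stood at 0, 0.111, 0.0819, 0.0549, 0.503, 0.300 and 0.455 UMIs per 10000 in Plvap-positive nuclei, against 0.384, 0.790, 1.10, 1.00, 2.25, 2.06 and 1.4 in Ehd3-positive nuclei, in the same order of libraries. It was lower in Plvap-positive nuclei in 7 of 7 libraries, by 2.42 ± 0.28 on the log2 scale (edgeR log2 fold change -2.42, adjusted p = 1.78e-08). Nrp1 (ENSRNOG00000010744) stood at 2.10, 2.33, 1.72, 1.54, 2.31, 2.52 and 2.85 in Plvap-positive nuclei, against 6.52, 3.29, 3.29, 3.44, 4.92, 7.08 and 4.05 in Ehd3-positive nuclei. These ranges did not overlap (log2 fold change -0.98 ± 0.15, edgeR adjusted p = 3.05e-05).

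Several lower genes code for growth factors and for proteins of glomerular cells. Tgfb2, a TGF-beta ligand, had 18 UMIs in Plvap-positive and 78 in Ehd3-positive nuclei (log2 fold change -2.14, edgeR adjusted p = 0.000969), and the ligand Bmp6 had 27 and 86 (-1.76, adjusted p = 0.0048). The ubiquitin ligase Hecw2, a gene of the glomerular endothelial list, averaged 3.64 ± 2.12 UMIs per 10000 in Plvap-positive and 5.82 ± 2.24 in Ehd3-positive nuclei and was lower in 7 of 7 libraries (-0.78, adjusted p = 0.000416). Clic5, an intracellular channel protein of podocytes and glomerular endothelium, averaged 1.66 ± 0.661 against 3.14 ± 0.779 (-0.92, adjusted p = 0.000416). The sum over 10 podocyte genes was 7.67 ± 3.77 per 10000 in Plvap-positive and 7.89 ± 2.34 in Ehd3-positive nuclei. Sox17 was lower by 2.05 on the log2 scale (log2 fold change -2.05, adjusted p = 0.0048) on 21 and 81 UMIs. It lost the call without 2-kidney replicate 1 (log2 fold change -1.62, adjusted p = 0.124) or 2-kidney replicate 3 (-2.02, 0.0826), with DESeq2 (-2.37, 0.0861), with the nuclei richest in tubule RNA left out (-1.69, 0.198) and with Plvap at 2 or more UMIs (-1.05, 0.478). The collagen Col12a1, the chondroitin sulfate enzyme Csgalnact1, the protocadherin Pcdh17, the complement component C7 and the glycosyltransferase Eogt were lower by log2 fold changes of -2.23, -1.33, -0.97, -1.90 and -1.51. Cyyr1, Rnf144a, Clec1a and Ptn were the further named genes that passed as lower, and 1 unnamed identifier passed in each direction.

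By pathway, the lists chosen for this tissue moved little against a median log2 fold change of -0.00 over all genes tested. Of 8 VEGF and angiopoietin genes outside the rule, 1 fell (Nrp1) and none rose, with a median of 0.10. Tek stood at 7.51 ± 2.35 against 5.99 ± 1.68 UMIs per 10000 (log2 fold change 0.33, edgeR adjusted p = 0.559). Of 13 BMP and TGF-beta genes 2 fell and none rose (median -0.27), and of 8 glomerular endothelial genes 1 fell and none rose (median -0.40). None of 9 vasoactive genes passed: Ramp3 had a log2 fold change of 0.50 and its receptor partner Calcrl one of -0.58 (edgeR adjusted p = 0.572 and 0.056). None of 17 basement membrane and matrix genes, 17 axon guidance genes or 11 insulin and IGF genes passed, with medians of 0.03, 0.03 and 0.11. On simulated counts of this design, 24.5% of genes changed 2-fold were called and 94.5% of those changed 4-fold. The simulation gave every gene the same spread and libraries no difference but depth, so recovery in the real counts may be lower.

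These calls depended on the library block and on the Plvap condition. On the same 5115 genes without the library block 6 passed with edgeR, all of them among the 28, and the 28 genes kept their direction with a median size of log2 fold change of 1.05, against 1.02 with the block. With the gene filter also set without the block, 3481 genes were tested, 19 of the 28 among them, and none passed (74 at an unadjusted p under 0.05, smallest adjusted p 0.0565). With DESeq2 14 genes passed. When the Plvap condition was dropped, so that all Ehd3-negative gate nuclei were set against the Ehd3-positive ones, 189 of 8282 genes passed, 41 higher and 148 lower and 16 of them among the 28, and the log2 fold changes turned to -0.37 for Tll1, -0.37 for Tek, -0.053 for Ehd4 and -0.12 for Ramp3. With Plvap at 2 or more UMIs 46 passed, 29 higher and 17 lower, of which 13 were among the 28. Within set P1117 8 genes passed, and without 2-kidney replicate 3 12 genes passed. Tll1, Col13a1, Pgm5, Dkk2, Nrp1, Tgfb2, Hecw2 and Clic5 passed with each library left out in turn. Hmcn1, Thsd7a, Chn2, Ror2, Eln, Cadps2, Ehd4, Csgalnact1, Pcdh17, C7 and Eogt did not pass without 2-kidney replicate 3 (adjusted p 0.0826 to 0.548), nor Bmp6 without 1-kidney replicate 3 (0.0909) or Col12a1 without 2-kidney replicate 4 (0.0526). Thsd7a, Ror2, Eln, Cadps2, Ehd4, Pcdh17, C7 and Eogt also each lost the call without at least 1 other library (edgeR adjusted p 0.0531 to 0.400).

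**Figure D3:**
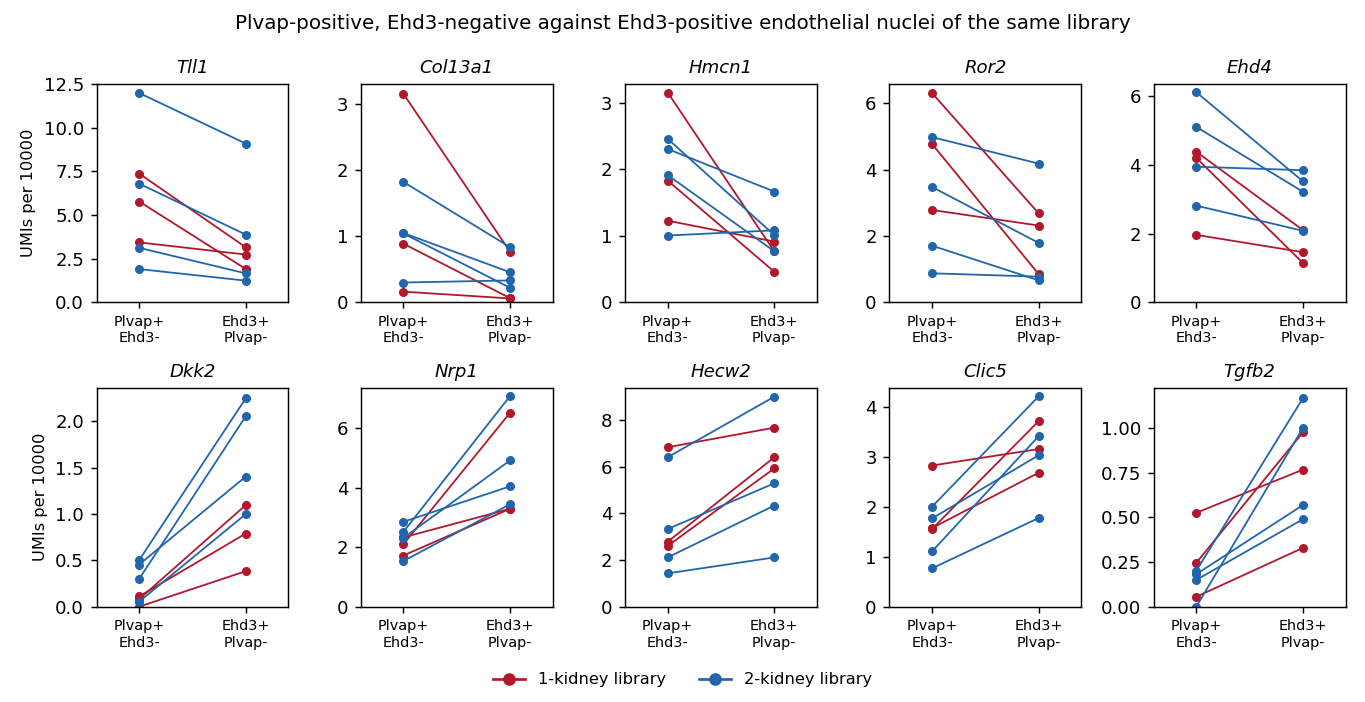
UMIs per 10000 of 10 genes in Plvap-positive, Ehd3-negative nuclei (left of each panel) and Ehd3-positive, Plvap-negative nuclei (right), 1 line per library, coloured by kidney number. Tll1, Ror2 and Ehd4 fall from left to right and Dkk2, Nrp1, Hecw2, Clic5 and Tgfb2 climb in 7 of 7 libraries, while Col13a1 and Hmcn1 fall in 6.

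Plvap-positive nuclei were also set against the 2348 nuclei of the endothelial gate that held neither Plvap nor Ehd3, a comparison added after the data were seen. Of 8228 genes tested, 238 passed (2.89%), with 187 higher (2.27%) and 51 lower (0.62%) in Plvap-positive nuclei, and 1054 had an unadjusted p under 0.05 (12.8%). With no filter on low counts the balance became 100 higher and 109 lower of 17966 genes, 148 of them among the 238. Among the gene lists, endothelial transcription factors held the most genes that were higher, and the proximal tubule list held 4 that were lower and none higher. The classes also differed in the sums behind the rule: the 5 endothelial genes of the gate summed to 42.5 ± 8.52 per 10000 in Plvap-positive and 30.1 ± 4.81 in Plvap-negative nuclei, and 15 proximal tubule genes to 279 ± 72.6 and 338 ± 115. The part of these sums in the results below was not tested.

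Tek (ENSRNOG00000008587) stood at 5.26, 10.7, 5.24, 6.53, 5.83, 8.81 and 10.2 UMIs per 10000 in Plvap-positive nuclei, against 2.54, 2.86, 2.69, 3.18, 4.28, 6.05 and 6.35 in Plvap-negative nuclei. It was higher in 7 of 7 libraries (log2 fold change 0.91 ± 0.12, edgeR adjusted p = 6.59e-09). Tll1 averaged 5.78 ± 3.41 against 1.95 ± 1.57 (1.51 ± 0.13, adjusted p = 8.85e-18) and Col13a1 1.20 ± 1.02 against 0.264 ± 0.190 (1.78 ± 0.23, adjusted p = 6.75e-09). Hecw2, lower than in Ehd3-positive nuclei, was higher than in Plvap-negative nuclei at 3.64 ± 2.12 against 1.91 ± 0.794 (0.75, adjusted p = 4.45e-06).

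Further genes among those with the smallest p were the phosphoinositide phosphatase Inpp4b at 3.39 ± 1.57 against 1.42 ± 0.439 UMIs per 10000 (log2 fold change 1.00, edgeR adjusted p = 3.4e-08) and Rgcc at 3.46 ± 1.05 against 1.66 ± 0.554 (0.88, adjusted p = 7e-08). The Rac activator partner Elmo1 was higher by 0.86, the Ras family exchange factor Rapgef5 by 0.96 and the guidance protein Flrt2 by 1.10. Of 21 endothelial transcription factors 7 rose and 1 fell, with a median log2 fold change of 0.37 against -0.02 over all genes tested. The ETS factors Elk3, Fli1, Ets1 and Erg rose by 0.79, 0.57, 0.54 and 0.47, and Mef2c, Mef2a and Tcf4 by 0.61, 0.45 and 0.39. Sox17 was the factor that fell, with a log2 fold change of -1.37 (adjusted p = 0.00532), a call lost without 2-kidney replicate 1 (-1.05, adjusted p = 0.0962).

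Receptors followed by pathway. Of 9 VEGF and angiopoietin genes Tek and the coreceptor Nrp2 (0.54, edgeR adjusted p = 0.00479) rose and none fell. Of 12 vasoactive genes Ramp3 (0.84, adjusted p = 0.000188) and the endothelin receptor Ednrb (0.58, adjusted p = 0.0244) rose and none fell. Of 18 BMP and TGF-beta genes the coreceptors Eng (0.65) and Tgfbr3 (0.46) and the receptor Tgfbr2 (0.40) rose, while the ligand Bmp6 fell (log2 fold change -1.45, adjusted p = 0.000151). Of 18 axon guidance genes the netrin receptor Unc5c (1.09) and the ephrin receptor Ephb1 (0.72) rose. The single member of 8 caveolae and fenestrae genes that passed was Ehd4 (0.85), with a list median of 0.21.

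Genes that mark other vessel types went both ways, where 46.4% of all genes tested had a log2 fold change above 0. Of 10 venous and ascending vasa recta genes 3 rose (Tek, Nrp2 and Il1r1) and 1 fell (Vwf), with 7 above 0 and a median of 0.37. Of 9 arterial and descending vasa recta genes 2 fell (Sox17 and Slc14a1) and none rose, with 5 above 0 and a median of 0.03. Of 8 glomerular endothelial genes Hecw2 and the phosphatase Ptprm (0.44) rose and none fell, and none of 3 lymphatic genes passed. Vwf, the clotting protein of venous and larger vessel endothelium, had 0, 0, 1, 0, 0, 2 and 0 UMIs in the Plvap-positive nuclei of the 7 libraries, against 2, 19, 16, 17, 29, 70 and 28 in Plvap-negative nuclei (edgeR log2 fold change -3.65 ± 0.59, adjusted p = 3.44e-06). Slc14a1 had 3 UMIs against 122 (-3.14 ± 0.67, adjusted p = 0.000998). Dkk2 was lower in 7 of 7 libraries here too (-1.4 ± 0.26, adjusted p = 6.5e-05). None of 15 proximal tubule genes had a log2 fold change above 0, and 4 of them fell, including the glucose carrier Slc5a2 at -0.52 and the transcription factor Hnf4a at -0.36. On the same 8228 genes without the library block 0 passed with edgeR (696 at an unadjusted p under 0.05, smallest adjusted p 0.0519), although the 238 genes kept their direction with a median size of log2 fold change of 0.68, against 0.64 with the block. DESeq2 called 142. Among the genes named in this comparison, Ets1, Erg, Mef2a, Tcf4, Ednrb, Tgfbr2, Tgfbr3, Unc5c, Ephb1, Ptprm, Il1r1, Slc5a2 and Hnf4a each lost the call without at least 1 library, with adjusted p between 0.052 and 0.403.

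**Figure D4:**
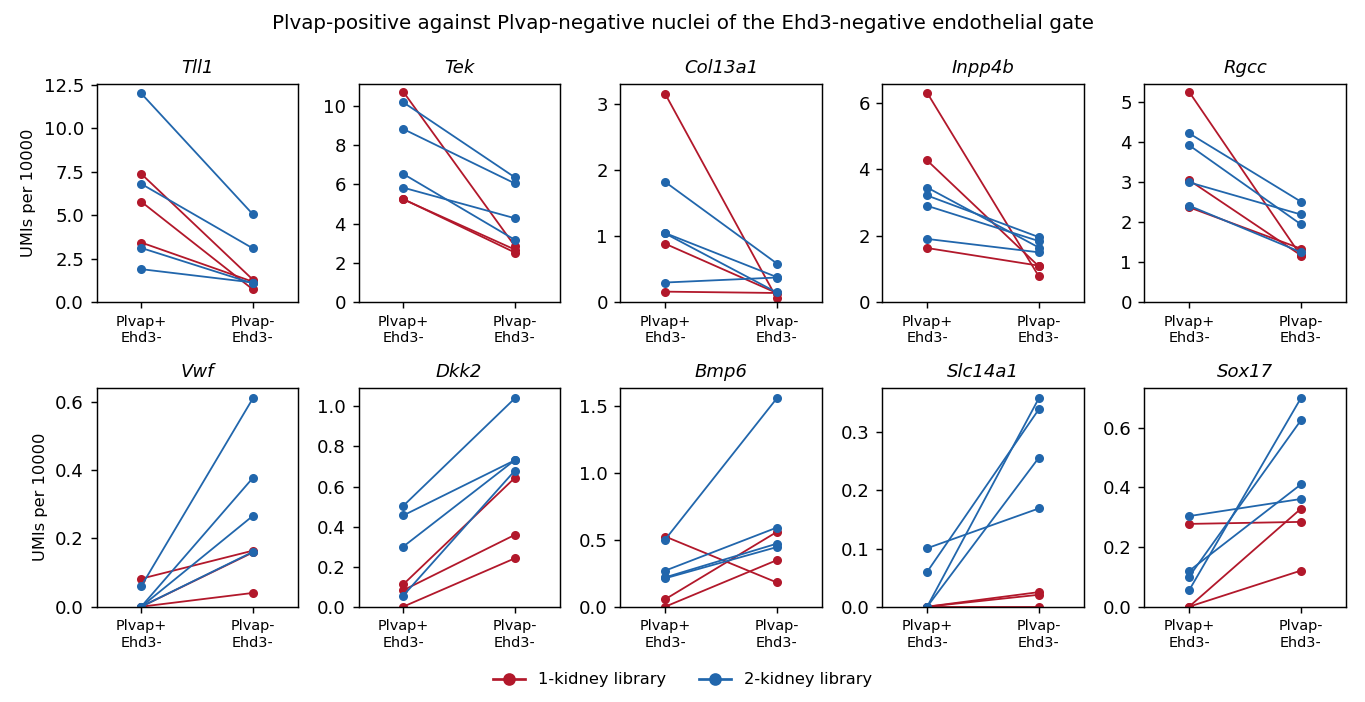
UMIs per 10000 of 10 genes in Plvap-positive (left of each panel) and Plvap-negative nuclei (right) of the Ehd3-negative endothelial gate, 1 line per library. Tll1, Tek, Inpp4b and Rgcc are higher on the left in 7 of 7 libraries, and Vwf, Dkk2 and Sox17 are lower there in 7 of 7.

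The comparison of 1-kidney with 2-kidney animals inside Plvap-positive nuclei gave no gene past the threshold. Of 4213 genes tested with edgeR, 0 had an adjusted p under 0.05 (0.0%), 240 had an unadjusted p under 0.05 (5.7%), and DESeq2 also called 0. The genes with the smallest p were higher for the kinase anchor Akap12 and for several proximal tubule genes, and lower for the ephrin receptor Epha4 and for tubule genes. On simulated counts of this design 3.5% of genes changed 2-fold were called and 71.5% of those changed 4-fold. These counts had the same spread for every gene, so recovery in the real counts may be lower.

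Akap12 (ENSRNOG00000019549), an anchor of protein kinases A and C, stood at 15.2, 1.61 and 4.42 UMIs per 10000 in the Plvap-positive nuclei of the 1-kidney libraries, against 0.714, 1.01, 0.390 and 1.31 in the 2-kidney libraries. The groups did not overlap, but 1-kidney replicate 1, with 8 nuclei and 29 UMIs of the gene, was far above the others. The log2 fold change was 2.52 ± 0.49 (edgeR adjusted p = 0.0906). It was 1.82 without 1-kidney replicate 1 (adjusted p = 0.421) and 3.18 without 1-kidney replicate 2 (0.000683). The gene also passed without 2-kidney replicate 4 (2.94, adjusted p = 0.0282) and with no filter on low counts (2.37, 5.9e-08), but not when any other library was left out (0.0982 to 0.506). Over all retained barcodes the gene averaged 0.656 ± 0.105 in 1-kidney libraries, against 0.433 ± 0.147 in 2-kidney libraries.

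Epha4 stood at 0, 0.499 and 0.409 UMIs per 10000 in the 1-kidney libraries, against 1.98, 1.01, 1.59 and 1.4 in the 2-kidney libraries, without overlap (log2 fold change -1.80 ± 0.43, edgeR adjusted p = 0.345). Gprc5b, an orphan receptor, stood at 0.526, 0.277 and 0.409 against 1.04, 0.503, 1.59 and 1.70, where 2-kidney replicate 2 overlapped the 1-kidney range (-1.87 ± 0.49, adjusted p = 0.345). Sestd1, a spectrin-domain protein, stood at 3.68, 2.11 and 1.88 against 1.04, 1.11, 1.05 and 0.911 (1.12 ± 0.31, adjusted p = 0.431). None of the 3 passed the threshold.

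Tubule genes among those with the smallest p are given beside their levels over all retained barcodes. G6pc, the glucose-releasing enzyme of proximal tubule and liver, stood at 4.73, 3.05 and 2.62 UMIs per 10000 in Plvap-positive nuclei of the 1-kidney libraries, against 1.37, 1.81, 0.839 and 1.12 in the 2-kidney libraries (log2 fold change 1.35, edgeR adjusted p = 0.328), and over all barcodes at 3.27 ± 0.406 against 1.34 ± 0.553. The lactate carrier Slc5a12 had a log2 fold change of 1.01 (adjusted p = 0.345) and stood at 4.95 ± 0.566 against 3.01 ± 0.631 over all barcodes. Plcz1, known as a sperm phospholipase, had a log2 fold change of 2.14 (adjusted p = 0.345) and averaged 1.17 ± 0.751 against 0.256 ± 0.197 over all barcodes. The lower genes Cryl1, Pter, Pax2 and Slc4a1 had log2 fold changes of -1.31, -1.07, -1.28 and -1.76. Slc4a1, the anion exchanger of red cells and acid-secreting intercalated cells, was at 1.05, 0.555 and 1.47 against 5.43, 3.72, 3.00 and 1.4, while over all barcodes it was at 4.10 ± 1.06 against 4.24 ± 2.10. What part free tubule RNA has in these values was not tested.

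**Figure D5:**
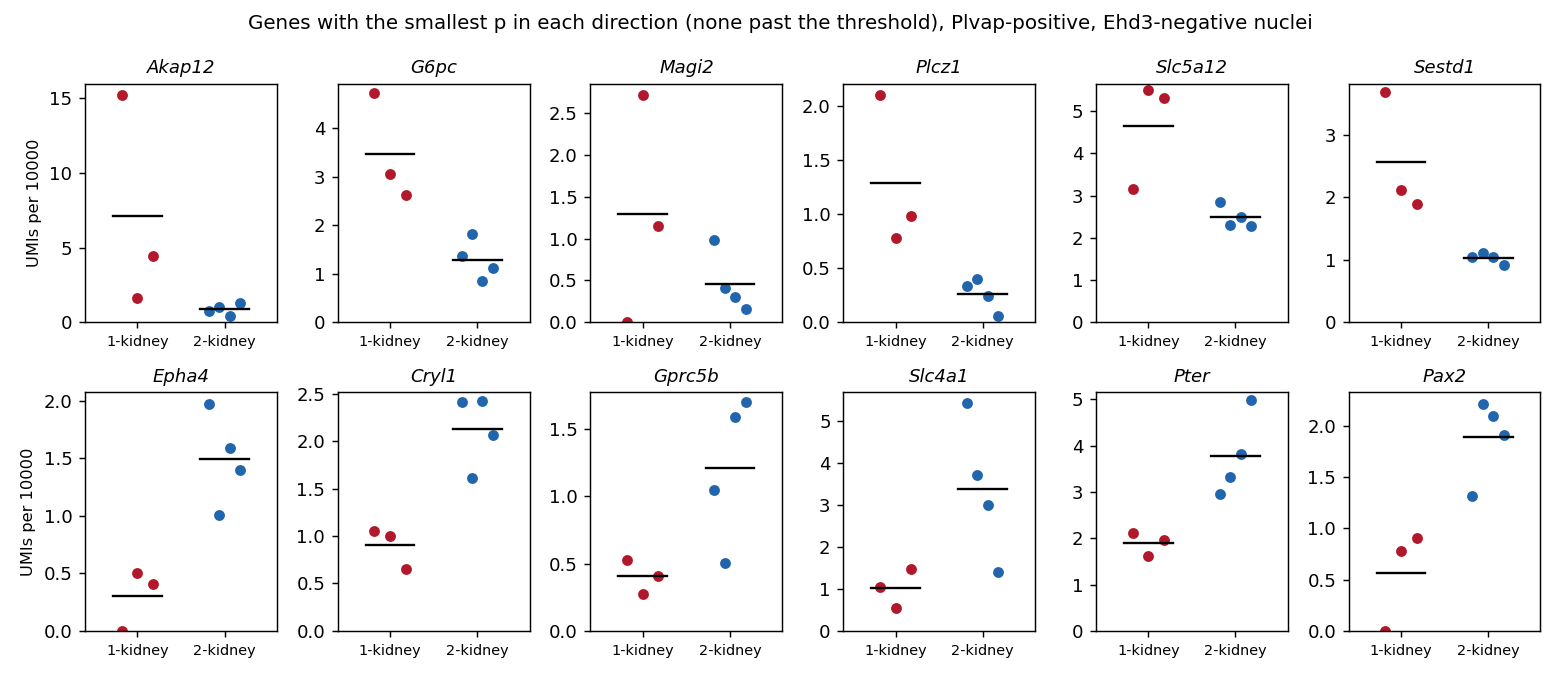
UMIs per 10000 in Plvap-positive, Ehd3-negative nuclei of the 12 genes with the smallest p between 1-kidney and 2-kidney libraries, 6 in each direction; points are libraries and lines group means. Akap12 in 1-kidney replicate 1 stands at 15.2, apart from every other library, and no gene passed the adjusted threshold.

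No pathway list held a gene that passed, and the medians are read against -0.03 over all genes tested, of which 47.0% had a log2 fold change above 0. Of 7 VEGF and angiopoietin genes outside the rule the median log2 fold change was -0.41: the lymphatic VEGF receptor Flt4 had -1.17 ± 0.45 (edgeR adjusted p = 0.78) and the ligand Vegfa 0.43 ± 0.34 (0.92). Of 7 vasoactive genes the median was -0.12, with Calcrl at -0.89 ± 0.37 and the nitric oxide synthase Nos3 at 0.07 ± 0.40. Of 10 BMP and TGF-beta genes the median was -0.28, with the ligand Bmp4 at 1.00 ± 0.43 and the signal transducer Smad1 at -0.82 ± 0.38. The 9 insulin and IGF genes had a median of -0.35 with none above 0, and their member with the smallest p, the IGF-binding protein Igfbp7, had -0.53 ± 0.29. The 16 matrix genes had a median of -0.12, with the protease Adamts9 at 0.65 ± 0.37 and the nidogen Nid1 at -1.60 ± 0.60.

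The remaining lists were similar in range. Of 16 transcription factors 12 had a log2 fold change above 0 with a median of 0.05, from Mef2a at 0.27 to Ets2 at -1.19 ± 0.55. The 11 junction genes had a median of -0.15, with the junction protein Esam at 0.16. The 14 axon guidance genes had a median of -0.16, with the ephrin Efnb2 at 0.50. The 5 Notch genes had a median of -0.00, with the receptor Notch1 at 0.25 and the transcription factor Rbpj at -0.69.

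Lists tied to hormones and stress differed among themselves, the insulin and IGF genes having the median of -0.35 given above. Of 8 glucocorticoid response genes 6 were above 0 with a median of 0.50. Their member with the smallest p, the kinase Sgk1, stood at 2.10, 3.22 and 3.60 UMIs per 10000 in the 1-kidney libraries, against 1.70, 1.21, 2.04 and 2.22 in the 2-kidney libraries, with overlap (log2 fold change 0.80 ± 0.29, edgeR adjusted p = 0.78), and over all barcodes at 2.58 ± 0.034 against 1.55 ± 0.0958. Of 11 genes of the unfolded protein response 7 were above 0 with a median of 0.22, the chaperone Hsp90b1 having 0.75 ± 0.30. The 5 immediate early and heat shock genes had a median of -0.03 with 2 above 0. The 4 cell cycle genes tested had a median of 0.90: Mki67 stood at 4.73, 2.00 and 0.491 against 1.32, 0.201, 0.210 and 0.364 (1.73 ± 0.57, adjusted p = 0.764).

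Calls were made within set P1117, a fit that also leaves out 2 of the 4 2-kidney libraries. There 4 genes passed with edgeR, of which the transcription factor Zbtb16, the glycosyltransferase Galnt10 and the chaperone partner Fkbp5 were higher and Slc4a1 was lower in 1-kidney libraries. Fkbp5 stood at 2.10, 4.00 and 4.09 UMIs per 10000 in the 1-kidney libraries, against 0.439, 1.31, 1.32 and 3.55 in the 2-kidney libraries, where replicate 4 of set P1117B overlapped the 1-kidney range. Zbtb16 stood at 17.9, 11.9 and 8.93 against 0.549, 3.92, 9.47 and 18.3, with both 2-kidney libraries of set P1117B inside or above the 1-kidney range. With the set as a term of the fit 5 genes passed, and without 2-kidney replicate 4 also 4.

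A last fit asked whether the 1-kidney effect differed between Plvap-positive and Ehd3-positive, Plvap-negative nuclei, and 1 of 5122 genes passed (0.0195%), while 203 had an unadjusted p under 0.05 (3.96%). Magi2, a scaffold protein of the podocyte slit diaphragm, had 0, 49 and 14 UMIs in Plvap-positive nuclei of the 1-kidney libraries, against 18, 4, 10 and 5 in the 2-kidney libraries. In Ehd3-positive nuclei it had 0, 4 and 11 UMIs in the 1-kidney libraries, against 6, 7, 37 and 27 in the 2-kidney libraries. The difference of the log2 fold changes was 3.28 ± 0.60 (edgeR adjusted p = 0.00333). Most of its UMIs in Plvap-positive nuclei of 1-kidney libraries came from replicate 2, and without that library no gene passed. No gene passed either without 2-kidney replicate 3, without 2-kidney replicate 4 or with DESeq2.

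Podocyte genes are given beside that result. The podocyte gene Nphs1 stood at 0, 1.78 and 0.246 UMIs per 10000 in Plvap-positive nuclei of the 1-kidney libraries, against 1.04, 0.101, 0.120 and 0.0304 in the 2-kidney libraries, with 1-kidney replicate 2 highest. All 6 podocyte genes in the fit, Magi2 itself among them, had a difference above 0, with a median of 1.99. Of all genes tested, 47.8% lay above 0. The part of podocyte RNA in the Magi2 result was not tested. Among genes that did not pass, Galnt10 stood at 12.1, 6.38 and 7.13 in Plvap-positive nuclei of the 1-kidney libraries, against 0.659, 2.52, 2.94 and 6.32 in the 2-kidney libraries, while in Ehd3-positive nuclei it stood at 1.53, 2.76 and 2.74 against 2.67, 1.67, 1.83 and 5.79. Its difference of log2 fold changes was 1.33 ± 0.33 (edgeR adjusted p = 0.391). On simulated counts, again with the same spread for every gene, 0% of genes with a 2-fold difference of effects were called. Of those with a 4-fold one, 28.5% were called.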

How the data were processed

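Nuclear RNA of 7 rat kidney libraries, which the titles number as separate animals, was deposited as a matrix of counts per library: whole numbers of UMIs per gene and barcode, made by the authors with Cell Ranger 7.0 per the submitters' processing notes. For the reference they counted against, a genome build and annotation were not given in the sources used here. Genes were matched by symbol over 25399 genes of the feature tables, 13 of them mitochondrial, and groups came from the sample titles. Replicate numbers only name libraries.

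Nuclei were chosen by the rule given at the start, in Python 3.11.15 with numpy 2.4.6, scipy 1.17.1 and pandas 2.3.3, and drawn with matplotlib 3.10.9. UMI counts were summed per library and class and tested with edgeR 4.0.16 in R 4.3.3 (quasi-likelihood test, TMM normalisation, filterByExpr, Benjamini-Hochberg adjustment over all genes tested). The comparisons with Ehd3-positive and with Plvap-negative nuclei had the library as a block and left out the genes of the rule. The fit of differing 1-kidney effects had the same block but kept 7 genes of the rule, and none of these passed. Plvap and Ehd3 are each 0 in 1 of its classes by the rule, so their values there carry no test. DESeq2 1.42.0 was an alternative. The edgeR fits were also run on simulated counts. Proximal tubule nuclei had 10 or more UMIs of Slc34a1, Lrp2 and Cubn and none of the endothelial genes. Shares were compared with exact two-sided permutation tests over libraries. Exact (Clopper-Pearson) 95% intervals cover counting error only. Doublets stayed in. In an alternative, Scrublet scores from scanpy 1.11.5 marked 0.8% of barcodes per 1000 barcodes, 33 of the 451 nuclei.

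The members and the gene lists were chosen with earlier results of these data known. Named genes were those past an adjusted p of 0.05, up to 12 in each direction with the smallest p, or the 6 with the smallest p where fewer than 12 passed, and from each list the gene with the smallest p in each direction and those that passed. Genes with only an identifier as symbol were counted, not named, and a few that the rule names are not reported here. After the values were seen, the rule was applied less fully: for lists of fewer than 5 tested genes, markers of other cells, most lists of the comparison with Ehd3-positive nuclei and most genes of the fit of differing effects, only counts are given or only some genes are named. Alternatives were other normalisation and filters, leaving out each library, set P1117 alone or the set as a term, 6 or more gate UMIs, Plvap at 2 or more UMIs, leaving out the 25% of nuclei with most tubule RNA, leaving out marked doublets, and fits without the library block.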

Additional observations from a re-analysis of the deposited data

Results flagged for a closer look

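Among 39 groups of 4 libraries tested for a stray value, genes of the rule left out, 2 were found, and chance alone gives about 5% of such groups. In the Plvap-positive nuclei of the 2-kidney libraries, replicate 1 stood apart for Smad1 at 3.18 UMIs per 10000, where its gap to the nearest library was 0.856 of the range, and for Mki67 at 1.32 (0.854).

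The 1-kidney effect on Magi2 differed between Plvap-positive and Ehd3-positive nuclei by 3.28 on the log2 scale with edgeR, the result described above, which was lost without 1-kidney replicate 2.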

How the results depend on the processing

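No paired analysis was possible for the 1-kidney comparisons because the replicate numbers only name libraries. The class comparisons have the library as a block. Without that replicate block 0 genes passed against Ehd3-positive nuclei and 1 against Plvap-negative nuclei, on fewer genes tested, and 6 and 0 on the same genes as with it, a setting chosen after the data were seen. The number of genes past the threshold between 1-kidney and 2-kidney libraries was 0 as given above, 14 with no filter on low counts, 4 in set P1117, 5 with the set as a term, 16 with the Plvap condition dropped, and 0 to 4 when a library was left out. Against Ehd3-positive nuclei it was 28, then 14 with DESeq2, 8 in set P1117, 46 with Plvap at 2 or more UMIs (29 higher and 17 lower, against 11 and 17), 189 with the Plvap condition dropped (41 higher and 148 lower) and 12 to 31 when a library was left out. For differing 1-kidney effects it was 1, then 0 with DESeq2, 6 gate UMIs, Plvap at 2 or more UMIs or doublets left out, 2 in set P1117 or with less tubule RNA, 4 with the Plvap condition dropped, and 0 to 15 when a library was left out. Against Plvap-negative nuclei it was 238, then 142 with DESeq2, 97 in set P1117, 133 to 292 when a library was left out and 209 with no filter (100 higher and 109 lower, against 187 and 51). The shares of Plvap-positive nuclei kept their direction under every alternative run, while that of Ehd3-positive nuclei in the gate turned in set P1117.

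Some list genes appear only here. Log2 fold changes that turned with the Plvap condition dropped were, in the 1-kidney comparison, Esam -0.34, Notch1 -0.077, Mef2a -0.40, Nos3 -0.51, Efnb2 -0.47, Errfi1 0.52, Herpud1 0.61, Plat -0.017 and Il1r1 -0.58. In the comparison with Ehd3-positive nuclei they were Tll1 -0.37, Ehd4 -0.053, Tek -0.37 and Ramp3 -0.12, and for differing effects Plpp1 -0.028. In set P1117 Vegfa turned to -0.13 (also with the set as a term, -0.13) and Ptprm to 0.0030. With less tubule RNA, Esam turned to -0.29, Nos3 to -0.055, Errfi1 to 0.21 and, for differing effects, Slc13a1 to 0.11. Doublets left out gave Esam -0.076, 6 gate UMIs gave Nos3 -0.27, no filter gave Nos3 -0.032, and Plvap at 2 or more UMIs gave Errfi1 0.30 and, against Ehd3-positive nuclei, Col18a1 -0.56. With a library left out, the values that crossed 0 ranged over -0.45 to 0.74 for Esam, -0.043 to 0.46 for Notch1, -0.17 to 0.19 for Nos3, -0.26 to 0.84 for Efnb2, -0.56 to 0.34 for Errfi1, -0.16 to 0.81 for Il1r1 and, against Plvap-negative nuclei, -0.30 (without 2-kidney replicate 4) to 3.52 for Hba-a1. Of the remaining values for named genes, 778 kept their direction and side of the threshold under the settings other than leaving out 1 library. Those settings include set P1117 alone, which lacks the 2-kidney libraries of set P1117B. A further 225 values kept the direction but not the call and 20 gained a call. With a library left out these numbers were 803, 84 and 10. The cause of these changes was not tested.

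Depth limits every comparison: 1-kidney replicate 1 holds 8 nuclei, where 3 UMIs amount to 1.58 per 10000.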

Other observations

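In the comparison with Plvap-negative nuclei, further genes passed, among them members of the lists for venous genes, antigen presentation, junctions, matrix, the unfolded protein response and distal nephron segments. The MHC class I light chain B2m averaged 1.47 ± 1.23 UMIs per 10000 in Plvap-positive and 0.600 ± 0.231 in Plvap-negative nuclei (log2 fold change 0.92, edgeR adjusted p = 0.000637, higher in 5 of 7 libraries). The interleukin-1 receptor Il1r1 averaged 1.42 ± 0.677 against 0.708 ± 0.228 (0.88, adjusted p = 0.000585), the junction protein Jam3 2.73 ± 0.667 against 1.94 ± 0.416 (0.44, adjusted p = 0.0326) and the matrix protein Sparc 0.888 ± 0.489 against 0.515 ± 0.221 (0.77, adjusted p = 0.00674). The stress-induced Herpud1 was lower, at 0.611 ± 0.386 against 1.17 ± 0.349 (-0.69, adjusted p = 0.0253). Genes of other nephron segments were lower as well: the thiazide-sensitive carrier Slc12a3 had a log2 fold change of -0.55, Slc4a1 one of -0.65 and Dmrt2, a transcription factor of intercalated cells, one of -2.81 on 3 against 130 UMIs. B2m, Il1r1, Jam3, Sparc, Herpud1 and Dmrt2 each lost the call without at least 1 library, with adjusted p between 0.0564 and 0.24.

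When the Plvap condition was dropped, 16 of 10070 genes passed between 1-kidney and 2-kidney libraries in all Ehd3-negative gate nuclei, 8 in each direction, a setting chosen after the data were seen. Among them were G6pc, Slc5a12 and Sestd1, with log2 fold changes of 1.72, 1.10 and 0.97, and Epha4, with -1.45.

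Red cell RNA came almost wholly from 1 library: in Plvap-positive nuclei, the alpha globin gene Hba-a1 had 437 of its 450 UMIs in 2-kidney replicate 4, and all 82 UMIs of Hbb were there too.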
